A study of Mus musculus with 2 samples.

Results

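The Sox and Fox genes encode transcription factors that bind DNA through an HMG box and a forkhead domain, respectively. Members were taken by symbol, Sox or Fox followed by the subgroup letter and number, and were kept where the annotation lists a protein-coding transcript. All 63 matching genes were kept, 19 Sox and 44 Fox, out of 21901 genes with a protein-coding transcript and 55536 annotated genes. Total RNA was sequenced from adrenal gland tissue of female B6CASTF1/J mice, hybrids of a laboratory and a wild-derived strain, at 4 days of age. They formed 1 group of 2 replicates, with no treatment and no altered allele named in the labels, and 300 ng of RNA went into each library. The label texts conflict on replicate 2: the text on its library repeats the animal number of replicate 1, the text on its tissue gives another, and the donor record is the same for both. They are treated as 2 animals on the strength of separate replicate numbers and tissue records. Differences between them carry no p-value, since each side of the comparison is 1 animal and has no replicate check.

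The HMG box bends DNA from the minor groove, and Sox factors usually act with a partner factor bound next to them. The forkhead domain is a winged helix whose recognition helix enters the major groove, and FOXA factors can open closed chromatin while FOXO factors leave the nucleus when insulin signalling is active. In the developing adrenal gland, Sox10 belongs to the neural crest and Schwann cell lineage that gives rise to the medulla, and SoxF genes (Sox7, Sox17 and Sox18) to the vessels.

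The stretch of coding sequence most alike within each family is shown first, because it is what defines the families and because its letters differ among the members described below. It is 10 codons, or 30 bases, long, lies in the DNA-binding domain of the members shown and was read from the GENCODE M21 transcripts of mouse build mm10 (GRCm38), 5′ to 3′ on the coding strand, within 1 exon of each gene. Among the Sox genes, the highest member of each subgroup detected is given, with capitals at bases that differ from Sox4.
Sox4, chr13:28952815-28952844, minus strand: aagcggcccatgaacgcctttatggtgtgg
Sox13, chr1:133385539-133385568, minus strand: aagAgAcccatgaaTgccttCatggtgtgg
Sox10, chr15:79163375-79163404, minus strand: aagAggcccatgaacgccttCatggtgtgg
Sox18, chr2:181671255-181671284, minus strand: CGgcggcccatgaacgccttCatggtgtgg
Of the 19 Sox genes, 16 (Sox4 included) encoded the same 10 residues as Sox4 here, and the 3 SoxF genes shared 9 of them. The bases varied more, with a median of 27 of 30 the same as in Sox4 and a minimum of 24, in Sox6.

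For the Fox genes 4 of the 5 members with the highest levels are given, with capitals at bases that differ from Foxn3.
Foxn3, chr12:99388397-99388426, minus strand: aactcagtgagacacaacttgtcattgaat
Foxo3, chr10:42197872-42197901, minus strand: aactcCAtCCgGcacaacCtgtcCCtgCaC
Foxj3, chr4:119585750-119585779, plus strand: aaTtcTAtACgacaTaaTCtgtcaCtgaaC
Foxp4, chr17:47871322-47871351, minus strand: aaTGcCgtgCgCcacaacCtCAGCCtgCaC
This stretch was less alike than that of the Sox genes: 7 of the 44 Fox genes (Foxn3 included) encoded all 10 residues of Foxn3, 25 at least 9 and 37 at least 8. The median was 19 of 30 bases the same as in Foxn3. Foxr1 was the least alike, at 4 residues and 7 bases. The stretch of each gene is the best match in its coding sequence, and that of Foxr1 was not shown to lie in the forkhead domain.

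Levels are deposited TPM, a gene's share of the library's transcripts (TPM sums to the same total in every library) after division by its effective length, so genes can be compared with each other. A gene counted as detected where both animals had at least 1 TPM. By this rule 31 of the 63 members were detected (49.2%), against 59.6% of all protein-coding genes: 11 of 19 Sox genes (57.9%) and 20 of 44 Fox genes (45.5%). The libraries held 31838341 and 32931868 expected counts, so that a gene without a count could still hold 9.42e-06% of replicate 1 or 9.11e-06% of replicate 2 (3 counts, counting error only). The sum of the Sox genes was 107 and 101 TPM in replicates 1 and 2 (104 ± 4.31, SD, n = 2), and that of the Fox genes 219.5 and 206 TPM (213 ± 9.60, SD, n = 2). A second deposited quantification placed the sums higher, at 178.5 TPM for Sox and 379.5 TPM for Fox, and it raised all detected protein-coding genes by a median of 1.82 times. No member was among the most abundant genes of the gland. The highest, Foxn3, ranked 2384 among protein-coding genes, 17 members reached 5 TPM in both animals and 13 reached 10 TPM. Among the 31 detected members in order of mean level, 22 of 30 neighbouring pairs had ranges over the 2 animals that overlapped, so most neighbours in the order did not differ beyond their spread.

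**Figure D1:**
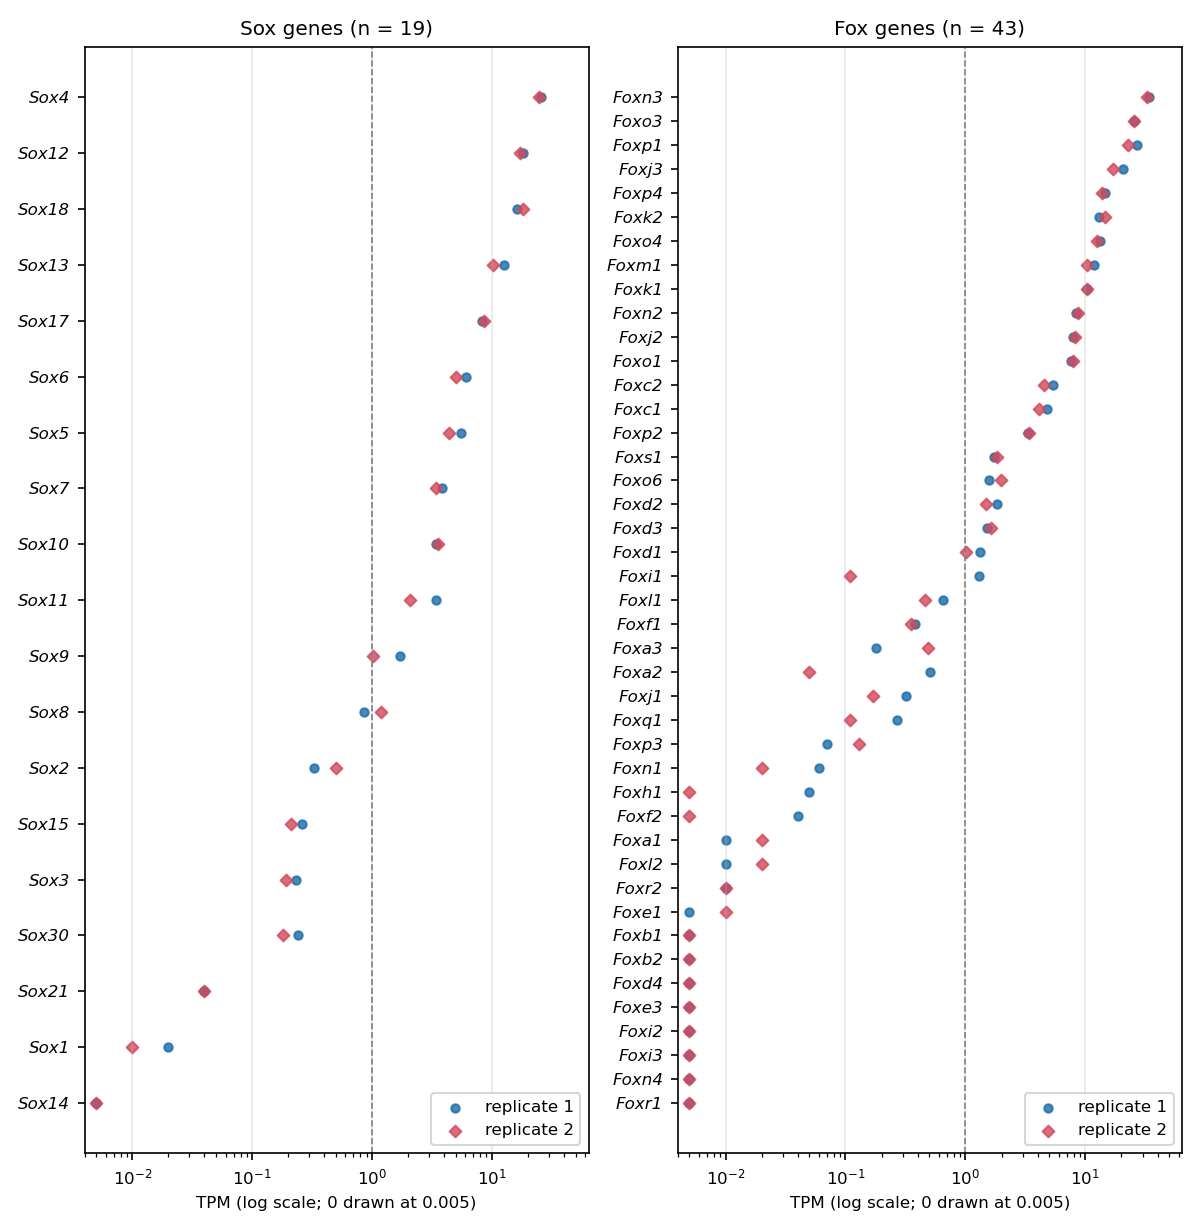
TPM (log scale, 0 drawn at 0.005) of the Sox genes (left) and Fox genes (right), 1 undetected Fox gene left out, ordered by mean, in replicate 1 (circles) and replicate 2 (diamonds). The dashed line marks 1 TPM; 31 genes lie at or above it in both animals, and the widest gaps between the animals are those of Foxi1 and Foxa2, both low.

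The SoxC genes (Sox4, Sox11 and Sox12), which promote survival and early differentiation of neural and mesenchymal progenitors, had the highest Sox sum, 47.3 TPM in replicate 1 and 44.1 TPM in replicate 2. Sox4 (ENSMUSG00000076431.4, chromosome 13, 28948919 to 28953713, minus strand) measured 25.7 and 24.7 TPM (3713 and 3694 counts). Sox12 measured 18.2 and 17.3 TPM. These 2 genes kept nearly the same level in both animals. Sox11 was much lower, at 3.40 and 2.08 TPM, and stood apart from its relatives by its difference between the animals, given below.

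Next came the SoxF genes, regulators of endothelial identity, at 28.2 and 30.1 TPM in sum. Sox18 measured 16.1 and 18.2 TPM, Sox17 8.23 and 8.51 TPM, and Sox7 3.84 and 3.44 TPM. In bulk tissue a sum of this kind cannot tell more cells of a type from more RNA per cell, and this holds for every level given here. The SoxD genes, which lack a transactivation domain and modulate other Sox factors, followed at 24.2 and 19.6 TPM. Sox13 led them with 12.6 and 10.2 TPM, Sox6 had 6.09 and 4.99 TPM, and Sox5 5.52 and 4.41 TPM. All 3 were lower in replicate 2 on the TPM scale.

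Of the SoxE genes, which act in neural crest, cartilage and gonad, Sox10 measured 3.39 and 3.53 TPM and Sox9 1.72 and 1.01 TPM. Sox8 fell on both sides of the threshold, at 0.85 and 1.19 TPM. The SoxE sum was 5.96 and 5.73 TPM. The progenitor genes of the SoxB1 group summed to 0.58 and 0.70 TPM, of which Sox2, a pluripotency and neural progenitor factor, gave 0.33 and 0.50 TPM, and neither they nor SoxB2, Sox15 (SoxG) and Sox30 (SoxH) were detected. All members of SoxC, SoxD and SoxF were thus detected, 2 of 3 of SoxE, and none of the other Sox subgroups.

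Foxo, Foxp and Foxn genes were the leading Fox groups, with sums of 47.9 and 47.6 TPM, 45.0 and 40.0 TPM, and 42.4 and 41.3 TPM in replicates 1 and 2. All 4 Foxo genes, the insulin-regulated forkhead factors of stress resistance and metabolism, were detected. Foxo3 (ENSMUSG00000048756.11, chromosome 10, 42181841 to 42276755, minus strand) measured 25.6 and 25.3 TPM (4809 and 5106 counts), with nearly equal levels in both animals. Foxo4 had 13.1 and 12.5 TPM, Foxo1 7.58 and 7.89 TPM, and Foxo6, best known from brain, 1.56 and 1.97 TPM. Their order was the same in both animals.

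Foxn3 (ENSMUSG00000033713.12, chromosome 12, 99190078 to 99563582, minus strand), a transcriptional repressor linked to cell cycle checkpoints, was the highest of all 63 members at 33.9 and 32.6 TPM (4010 and 3970 counts). In the second quantification it came after Foxp1, at a mean of 48.61 against 49.95 TPM. Its relative Foxn2 had 8.42 and 8.64 TPM. Foxn1, the factor of thymic epithelium, stood at 0.06 and 0.02 TPM, and Foxn4 was at 0. The group thus held 2 detected and 2 undetected members.

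Among the Foxp genes, repressors that form dimers, Foxp1 (ENSMUSG00000030067.17, chromosome 6, 98925338 to 99522721, minus strand) measured 26.8 and 22.7 TPM, Foxp4 14.7 and 13.8 TPM, and Foxp2 3.35 and 3.38 TPM. Foxp3, the factor of regulatory T cells, stood at 0.07 and 0.13 TPM. In the Foxj group, Foxj3 had 20.8 and 17.0 TPM and Foxj2 7.88 and 8.26 TPM, while Foxj1, which switches on motile cilium genes, was below the threshold at 0.32 and 0.17 TPM. Both Foxk genes, which regulate autophagy and metabolism, were detected: Foxk2 at 13.1 and 14.5 TPM and Foxk1 at 10.3 and 10.3 TPM. Foxm1, which drives genes of the G2 and M phases of the cell cycle, measured 11.8 and 10.3 TPM.

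Forkhead genes of mesenchyme and crest had lower levels. Foxc2 measured 5.42 and 4.50 TPM and Foxc1 4.77 and 4.11 TPM; both act in mesoderm and vessel development. Foxs1, a gene described in crest derivatives and pericytes, had 1.74 and 1.84 TPM. The Foxd genes Foxd2, Foxd3 and Foxd1 had 1.82 and 1.49, 1.50 and 1.62, and 1.32 and 1.02 TPM. Foxd3 is a neural crest factor and Foxd1 marks stroma of the embryonic kidney and neighbouring tissue. Ranges over the animals overlapped for every neighbouring pair from Foxs1 down to Foxd1, a run that also holds Foxo6 and Sox9. Neighbours in this run thus have no firm order, though genes further apart can, as the range of Foxs1 lay wholly above that of Foxd1.

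Of the 32 members not detected, 2 (Sox8 and Foxi1) reached 1 TPM in 1 animal, 30 were under it in both, and 9 of these had 0 counts in both animals in the gene tables. Those 9 were Foxb1, Foxb2, Foxd4, Foxe3, Foxi2, Foxi3, Foxn4, Foxr1 and Sox14. Besides Sox8 and Foxi1, 5 undetected members still had a mean expected count of 20 or more. Foxl1, a factor of gut mesenchyme, had 52 and 38 counts (0.65 and 0.46 TPM), and Foxf1, a hedgehog-responsive mesenchymal factor, 27 and 26 counts (0.38 and 0.35 TPM). Sox2 had 20 and 31 counts, Foxa3 11 and 30, and Foxq1 40 and 16. These counts are above the floor of 3 but too few to fix a level closely. None of the Foxa genes, pioneers of endoderm, was detected, and Foxl2, the factor of ovarian granulosa cells, had 1 and 2 counts.

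Differences between the animals are log2 ratios, replicate 2 divided by replicate 1, of TMM-scaled expected counts (TMM is a normalization that balances the bulk of genes), with 95% exact intervals for counting error only. A gene was called by size, at 2-fold or more and a mean count of 100 or more. None of the 30 members with that count was called, against 3.33% of protein-coding genes, and none was called with DESeq2 or spike-in scaling or by the ratio of deposited TPM. The median absolute log2 ratio was 0.12 in the members and 0.11 in all genes so tested. Counting error alone was exceeded, as an interval that leaves out 0, in 15 of 30 members (50.0%), against 41.2% of genes; 8 of the 15 were higher in replicate 1 and 7 in replicate 2. By direction, 18 of 30 members were higher in replicate 1 (60.0%), against 43.9% of genes. That gap depends on the scaling: with spike-in scaling 20 of 30 members (66.7%) and 65.4% of genes were higher in replicate 1, and with DESeq2 scaling 18 of 30 and 49.4%.

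Sox9 and Sox11 had the largest differences among these 30. Sox9 had 214 and 130 counts, or -0.72 on the log2 scale (95% interval -1.05 to -0.40), and Sox11 859 and 544 counts, or -0.66 (-0.82 to -0.51). Both were lower in replicate 2, by less than the 2-fold rule. In the opposite direction Foxo6, with 121 and 158 counts, differed by a log2 ratio of 0.38 (0.03 to 0.74). Sox10, with 240 and 292 counts, differed by 0.28 (0.03 to 0.53), and Foxp2, with 402 and 470 counts, by 0.22 (0.03 to 0.42). Sox18, with 756 and 881 counts, differed by 0.22 (0.08 to 0.36). On the TPM scale Sox10 (3.39 and 3.53) and Foxp2 (3.35 and 3.38) were closer to level. Foxn3 and Sox4, the members with the most reads after Foxo3, were level between the animals, at -0.02 (-0.08 to 0.04) and -0.01 (-0.08 to 0.06). Members of a subgroup did not always go together, as Sox4 and Sox11 or Sox9 and Sox10 show.

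**Figure D2:**
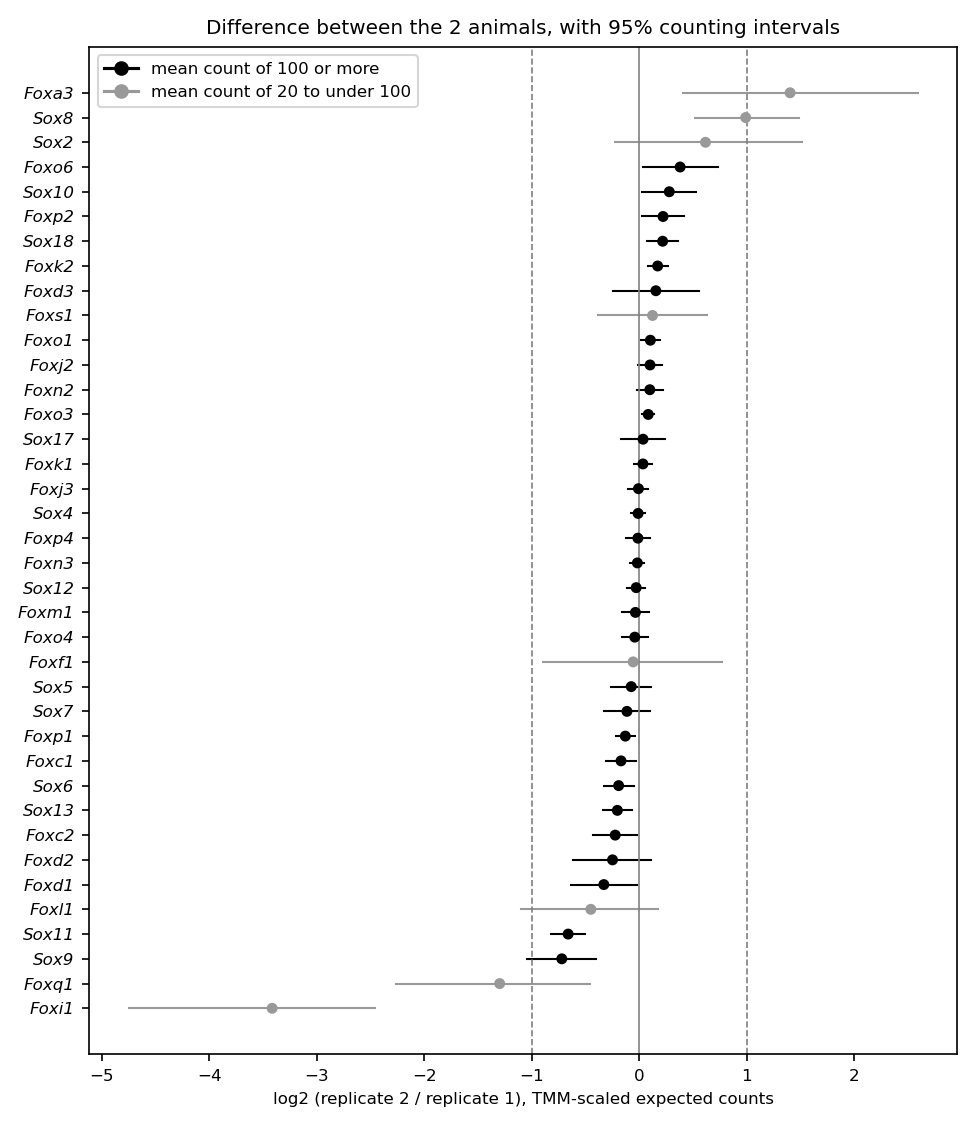
Log2 ratio of replicate 2 over replicate 1 (TMM-scaled expected counts) with 95% counting intervals for the 38 members with a mean count of 20 or more; black points have a mean count of 100 or more, grey points fewer. Dashed lines mark 2-fold; no black point lies beyond them, while Foxi1, Foxq1 and Foxa3 do.

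The wide differences were among the low members. At a mean count of 20 or more, 3 of 38 members differed 2-fold, against 5.76% of protein-coding genes, and they were chosen for mention by that size. Foxi1 (ENSMUSG00000047861.2, chromosome 11, 34204338 to 34208089, minus strand), which specifies acid-base transporting intercalated cells of the kidney, had 90 counts in replicate 1 and 8 in replicate 2, a log2 ratio of -3.42 (95% interval -4.75 to -2.46). Foxq1 had 40 and 16 counts, at -1.30 (-2.26 to -0.46), and Foxa3 11 and 30 counts, at 1.40 (0.41 to 2.59). Sox8, with 55 and 110 counts, lay just inside 2-fold at 0.99 (0.52 to 1.49). Under 20 counts on average, Foxa2 had 31 and 3 counts and was named after its values were seen. Foxi1, Foxq1 and Foxa2 were higher in replicate 1, and Foxa3 and Sox8 in replicate 2.

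Markers of neighbouring organs differed between these libraries too. All 10 kidney markers were higher in replicate 1, with a summed level of 109 TPM against 11.7 TPM in replicate 2, and 8 of them differed 2-fold at a mean count of 100. The proximal tubule transporter gene Slc34a1 measured 47.0 and 4.97 TPM, and the endocytic receptor gene Lrp2 14.3 and 2.30 TPM. Of the 5 genes of intercalated cells linked to FOXI1, all were higher in replicate 1, with sums of 64.6 and 32.7 TPM. Atp6v1b1, a proton pump subunit of these cells, measured 4.90 and 0.35 TPM, Atp6v0a4 4.30 and 1.20 TPM, and Slc4a1, an anion exchanger also made by red cells, 50.0 and 29.0 TPM. Slc4a9 measured 3.07 and 0.19 TPM, while Slc26a4 was closer to level at 2.36 and 2.01 TPM. Most of the summed level came from Slc4a1. The 5 genes went in the direction of Foxi1, though by unlike amounts, and the 8 counts of Foxi1 in replicate 2 accompany the lower kidney sum. The part of kidney RNA in the level of Foxi1 was not tested.

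Pancreas markers gave 3805 TPM in sum in replicate 1 but 0.49 in replicate 2, where 5 of the 7 were at 0 counts; the highest were the protease genes Ctrb1 (2127 and 0.24 TPM) and Cela2a (561 and 0 TPM). Liver markers went the other way, 125 and 551 TPM, led by Alb (60.3 and 269 TPM) and Ahsg (24.3 and 112 TPM). The endoderm list linked to FOXA divided along the same line: Hnf4a had 6.75 and 1.42 TPM and Pdx1, the pancreatic factor, 0.63 and 0 TPM, whereas Alb and Afp (21.6 and 96.3 TPM) were higher in replicate 2. That list had 4 of 7 genes detected and sums of 105 and 397 TPM. Foxa2 moved with the pancreas and kidney markers and Foxa3 with the liver markers, and the part of those organs in their counts was not tested. Skeletal muscle markers were also higher in replicate 2, at 338 and 2110 TPM in sum, led by Acta1 (128 and 840 TPM) and Mylpf (95.7 and 562 TPM).

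**Figure D3:**
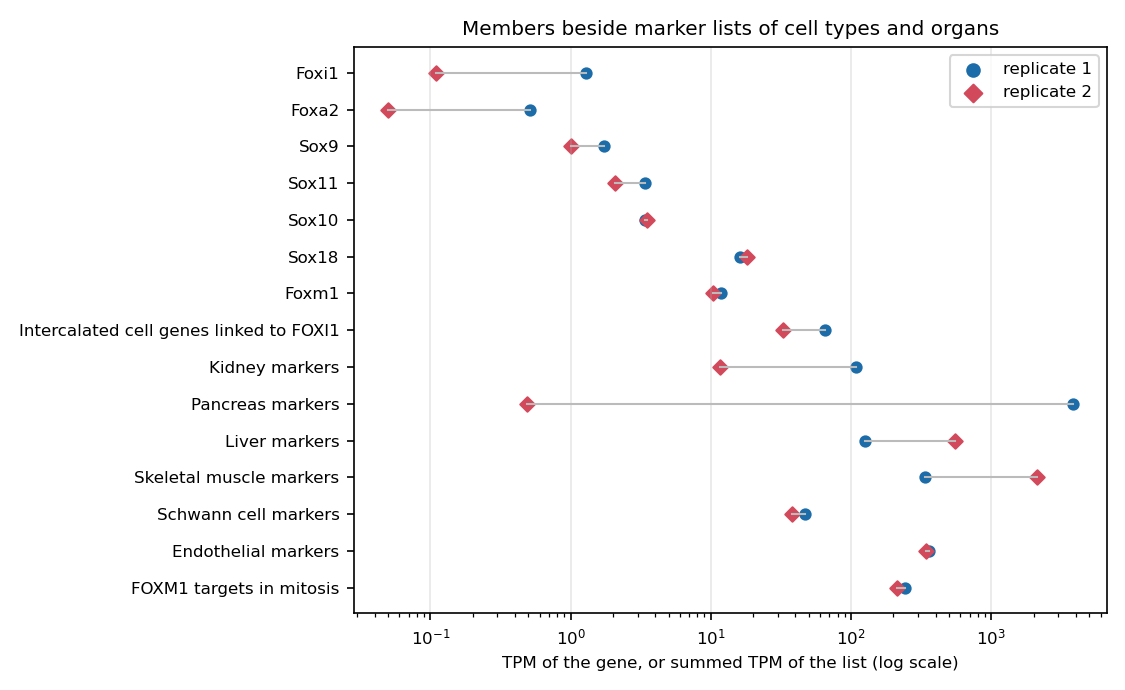
TPM of 7 members (top) and summed TPM of 8 marker or target lists (below) in replicate 1 (circles) and replicate 2 (diamonds), on a log scale. Foxi1 and Foxa2 are lower in replicate 2, as are the intercalated, kidney and pancreas lists, while Sox18, Sox10, Foxm1 and the endothelial, Schwann and mitosis lists lie close together in both animals.

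The labelled tissue was present in both libraries. All 7 adrenal cortex markers were detected, with sums of 6068 and 6684 TPM, led by Hsd3b1 (2214 and 2570 TPM) and Cyp21a1 (1417 and 1517 TPM), and all 6 chromaffin cell markers, with 1836 and 2150 TPM, led by Chga (683 and 777 TPM) and Chgb (522 and 621 TPM). Other cell types in the gland gave, in replicates 1 and 2, 359 and 342 TPM for 8 endothelial genes (Egfl7 105 and 88.9, Plvap 63.9 and 60.7) and 1149 and 1312 TPM for 9 capsule and fibroblast genes (Col3a1 363 and 434, Col1a1 318 and 365). Macrophage genes summed to 75.0 and 106 TPM (Lyz2 21.4 and 33.6, C1qa 17.5 and 22.6), and adipose genes to 354 and 378 TPM (Plin1 128 and 141, Ucp1 131 and 116). Lymphocyte genes were not detected, with 1.04 and 2.33 TPM over 6 genes (Cd79a 0.38 and 0.67, Cd4 0.30 and 0.72).

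Target genes of the members were given by lists. For Sox10, the 7 Schwann cell targets were all detected, with sums of 70.5 and 57.1 TPM, led by Ednrb, an endothelin receptor (25.7 and 22.5 TPM). The 8 Schwann cell markers, which include Sox10 and Foxd3 and share several genes, among them Erbb3 and Cdh19, with the target list, had sums of 46.8 and 37.7 TPM. None of either list differed 2-fold at a mean count of 100. All 8 endothelial genes linked to SoxF were detected, at 186 and 188 TPM in sum, led by the junction genes Cdh5 (42.4 and 44.1 TPM) and Pecam1 (39.3 and 40.7 TPM). The 6 early neuron genes linked to SoxC were detected as well, at 222 and 201 TPM, led by the tubulin-binding Stmn1 (103 and 92.9 TPM) and Stmn2 (47.8 and 49.7 TPM).

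SOX9's cartilage targets were low: 2 of 8 were detected, though 6 had a mean count of 20 or more, with sums of 6.68 and 5.18 TPM, Hapln1 at 2.36 and 1.57 TPM and Col9a2 at 1.31 and 1.63 TPM. Of those 6, 4 were higher in replicate 1 and 2 in replicate 2 by TMM-scaled counts (median -0.14 on the log2 scale); Col2a1, the main cartilage collagen, was the 1 that differed 2-fold at a mean count of 100, with 179 and 66 counts. Of 18 FOXO targets, 17 were detected, with sums of 781 and 736 TPM, led by Txnip, an inhibitor of thioredoxin (350 and 305 TPM), and the mitochondrial superoxide dismutase gene Sod2 (99.3 and 108 TPM). The exception was Trim63, a muscle ubiquitin ligase, with 10 and 43 counts, in the direction of the skeletal muscle markers. All 15 mitosis genes driven by FOXM1 were detected, at 241 and 214 TPM, led by Top2a (40.8 and 40.5 TPM) and Mki67 (34.1 and 28.4 TPM), and none differed 2-fold.

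Lists of low members showed mixed pictures. For Foxj1, 9 cilium genes were listed and 7 found in the annotation by symbol; 2 were detected, Rsph1 (1.96 and 1.70 TPM) and Ccdc39 (1.21 and 1.18 TPM), and the sum was 3.91 and 3.35 TPM. All 7 hedgehog genes linked to FOXF were detected although Foxf1 and Foxf2 were not, with sums of 118 and 122 TPM, Smo at 33.7 and 33.2 TPM and Gas1 at 30.9 and 33.1 TPM. Of 5 regulatory T cell genes linked to FOXP3, only Ikzf2 (4.05 and 3.90 TPM) was detected; the sum was 4.45 and 4.91 TPM, with Cd4 next. Of 5 granulosa cell genes linked to FOXL2, Fst (8.22 and 7.59 TPM) and Amhr2 (1.00 and 1.89 TPM) were detected, with sums of 9.64 and 9.84 TPM, while Fshr was at 0 in both animals. The lists give the level of the genes named and were no measure of a factor's activity.

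Transcripts of the members were compared by their share of the gene's TPM in the deposited transcript tables. Of the 31 detected members, 13 had 1 annotated transcript and 18 had several. The leading transcript, the one with the highest mean TPM, was protein-coding in all 31, and in 16 of the 18 it was the leading one in each animal. Foxo3-203 took 87.2% and 91.8% of Foxo3 in replicates 1 and 2, Foxk2-201 86.7% and 85.0% of Foxk2, and Foxj2-201 96.1% and 88.6% of Foxj2. In the second quantification the first 2 kept their place, Foxo3-203 at 87.2% and 87.7% and Foxk2-201 at 89.5% and 91.9%, while Foxj2-201 took 63.3% and 70.6%. Foxn3-201 took 43.2% and 43.1%, Foxp4-202 40.4% and 38.7%, Foxj3-201 35.5% and 39.2%, and Foxp1-204 23.8% and 26.4% of a gene with 31 annotated transcripts. In the second quantification the leading Foxp1 form was Foxp1-218 instead, a short transcript, and Foxp1-204 took 15.3% and 17.9%; the other 17 genes kept their leading transcript.

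In these tables Sox10 and Sox17 had different leading transcripts in the 2 animals. Sox10-203 took 39.2% of Sox10 in replicate 1 and 95.2% in replicate 2, while Sox10-201 measured 1.40 and 0 TPM, against 1.33 and 3.36 TPM for Sox10-203. The switch of leading transcript was not seen in the second quantification, where Sox10-203 led in both animals. Its share still differed there in the same direction, with 53.4% and 89.3%. At 240 and 292 counts for the whole gene, the split rests on few reads. Sox17 was spread over several coding forms and a retained intron form, Sox17-205, at 20.4% and 14.4%. Of the coding forms, Sox17-204 took 25.2% and 17.0% and Sox17-208 11.8% and 22.9%. The second quantification gave 28.0% and 23.9% for Sox17-204 and 16.8% and 24.9% for Sox17-208, so the leading form differed between the animals there too.

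Transcripts of every annotated type other than protein-coding, such as retained introns and nonsense-mediated decay forms, are called noncoding here. They took over 10% of the gene's TPM in both animals in 13 members, and in 10 by the second quantification. In Foxn3 the decay form Foxn3-212 took 9.29% and 12.5%, out of a noncoding share of 16.9% and 20.3%. In Foxn2 the decay form Foxn2-203 took 17.3% and 15.7%, out of 24.1% and 22.6%. Sox5 had the largest noncoding share, 61.2% and 61.9%, beside 25.7% and 29.9% for its leading coding form Sox5-201. The second quantification gave noncoding shares of 39.3% and 48.0% for Sox5, and 41.6% and 29.5% for Sox13. The other SoxD genes also had large shares, Sox6 39.4% and 28.0% and Sox13 33.4% and 29.6%, with leading coding forms at 43.5% and 42.5% (Sox6-210) and 48.8% and 50.2% (Sox13-205). Foxp1 had 31.5% and 31.1%, and Foxm1 38.1% and 22.5% beside 54.5% and 61.0% for Foxm1-201. By the second quantification the noncoding shares were 28.3% and 19.6% for Foxp1 and 36.6% and 17.0% for Foxm1, with Foxm1-201 at 39.5% and 51.0%. The libraries were made from total RNA, and the part of unspliced RNA in these shares was not tested.

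**Figure D4:**
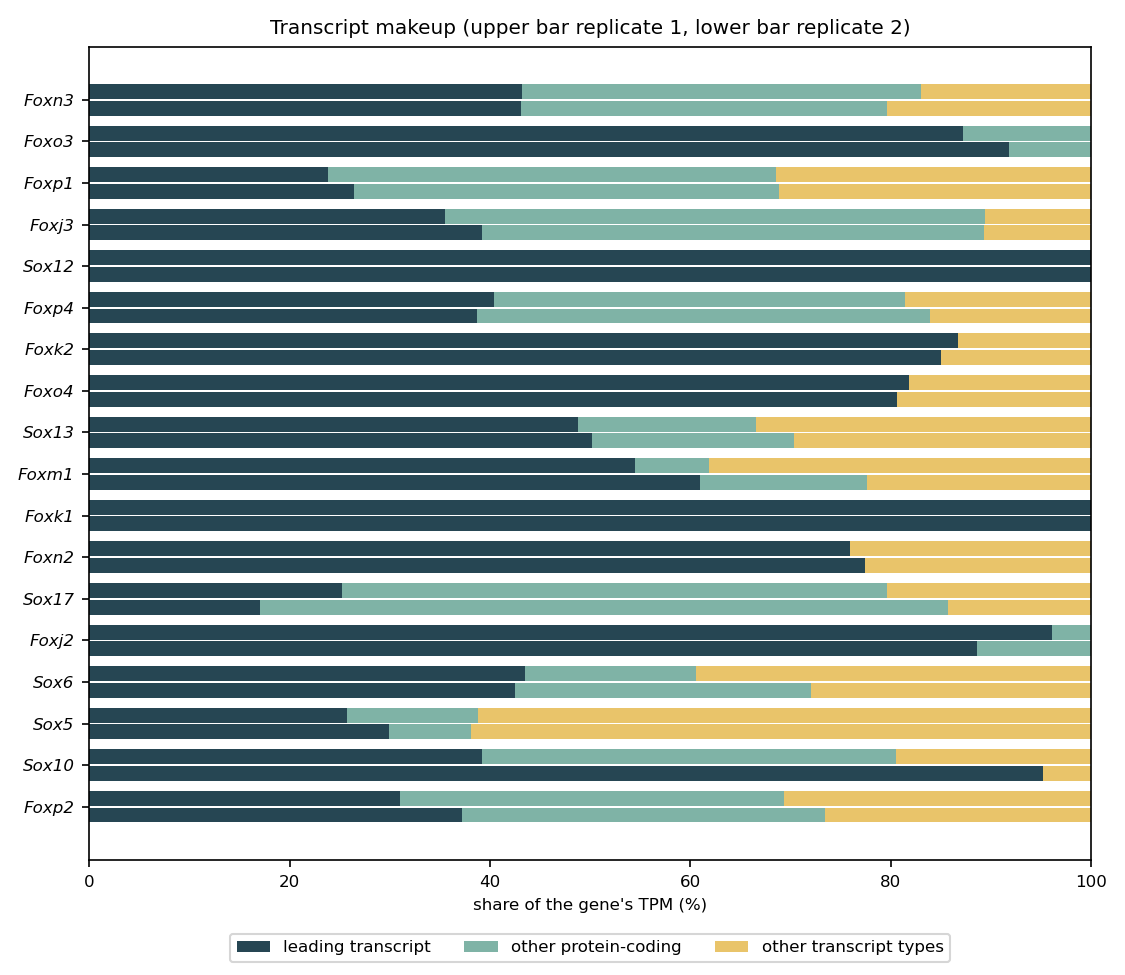
Share of the gene's TPM (%) taken by the leading transcript (dark), other protein-coding transcripts (mid) and other transcript types (light) in the 18 detected members with several transcripts, in order of level; upper bars are replicate 1 and lower bars replicate 2. Most pairs of bars match, Sox10 differs most (39.2% and 95.2% for the leading form), and Sox5 has the largest noncoding share in these tables.

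Intronless coding genes were common in both families. Of the 63 members, 19 (30.2%; 6 Sox and 13 Fox) had a single exon in each of their coding transcripts, against 6.28% of protein-coding genes (1375 of 21901). Among these 19, 8 were detected, against 23 of the 44 members with introns, and 9 of the 10 highest members had an annotated coding transcript with introns. Sox4, at a mean of 25.2 TPM, was the highest member with none. Sox12 had 1 such transcript, but it was at 0 TPM in both animals, and all of its TPM lay on Sox12-202, which has 1 exon.

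Fox genes also lie in clusters, and their members had unequal levels. On chromosome 8, Foxf1 (0.38 and 0.35 TPM), Foxc2 (5.42 and 4.50 TPM) and Foxl1 (0.65 and 0.46 TPM) start within 31.8 and 11.8 kb of each other. On chromosome 13, Foxq1 (0.27 and 0.11 TPM) lies 69.7 kb from Foxf2 (0.04 and 0 TPM), which lies 180.8 kb from Foxc1 (4.77 and 4.11 TPM). In both clusters the Foxc gene was the only one detected. On chromosome 4, Foxd2 was detected and Foxe3, which starts 17.1 kb away, had 0 counts in both animals.

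**Figure D5:**
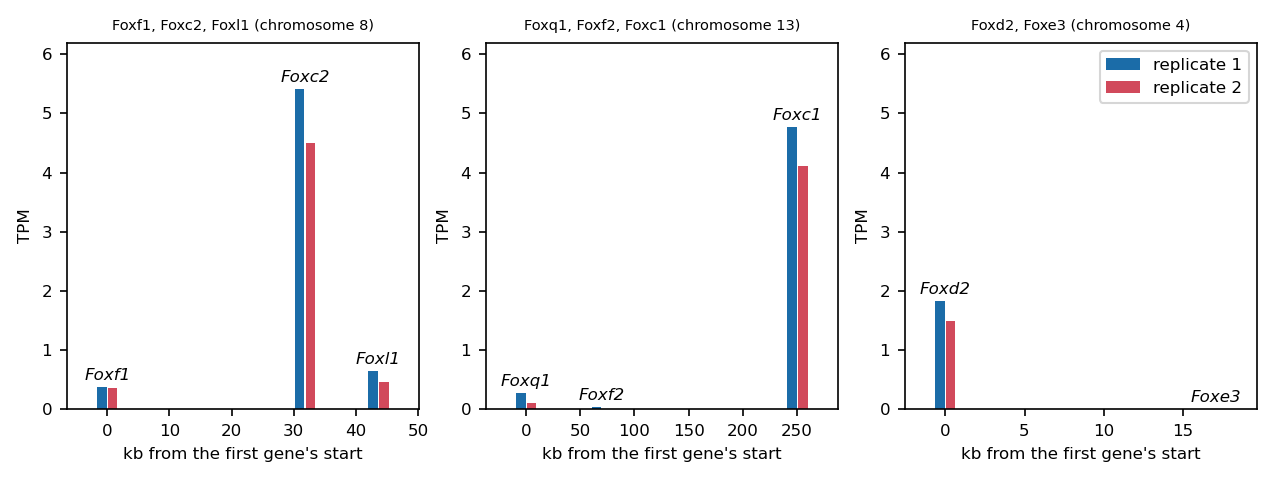
TPM (linear axis from 0) of Fox genes in 3 clusters, placed by the distance in kb from the start of the first gene, with paired bars for replicates 1 and 2. Foxc2, Foxc1 and Foxd2 rise above 1 TPM, and their neighbours Foxf1, Foxl1, Foxq1, Foxf2 and Foxe3 stay below it.

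Within 5 kb of the starts of detected members lay the starts of 15 other genes, beside 13 of the members, 13 of the 15 on the opposite strand, and 4 were detected. Foxm1 starts 56 bases from Rhno1, a checkpoint gene on the opposite strand, and the pair had similar levels, 11.8 and 10.3 TPM for Foxm1 and 13.2 and 12.3 TPM for Rhno1. Sox6 starts 601 bases from 1110004F10Rik, which was far higher at 47.2 and 45.0 TPM. Foxd2 and the noncoding Foxd2os, whose starts are 384 bases apart, had 1.82 and 1.49 and 1.64 and 1.26 TPM. Frg2f1, at 3.46 and 3.68 TPM, starts 2525 bases from Foxj3 and overlaps it on the opposite strand. The sources used here do not say whether counting used strand, so reads of overlapping opposite genes may not be separated.

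RefSeq promoters (GRCm38.p6, 250 bases before to 50 after the start) were matched for 41 members, with 51 promoters. An observed to expected CpG ratio above 0.6 was found in 62.7% of these promoters, against 35.8% of all 32851 promoters of that length. At least 1 such promoter belonged to 16 of 18 detected members and 15 of 23 undetected ones. These counts are per gene, and a gene with several promoters has more chances, so the 35.8% per promoter is no background for them. Among promoters of detected members the number of CpG in the 300 bases differed widely. It was 59 in Foxk2, 6 in Foxn3, 3 in Sox5 and 2 in some promoters of Sox6. These low promoters lie inside their minus-strand genes. That of Foxn3 is at 99450025 to 99450324, with the gene's start at 99563582. That of Sox5 is at 143947057 to 143947356, with the start at 144781977. No promoter at the annotated start of Foxn3 or Sox5 was matched. The letters TATAAA, on either strand, were in 5 of the 51 promoters (9.8%), of Foxa2, Foxa3, Foxp3 and Sox6, against 13.6% of all.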

How the data were processed

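Total RNA-seq of 2 adrenal gland samples was used, grouped by tissue, age, sex and strain into 1 group of 2 replicates. Per the file headers, the authors' gene tables give an expected count, TPM and a posterior mean TPM per gene, and the deposited transcript tables the same per transcript. A second deposited transcript table gives estimated counts and TPM, and was summed to genes (the second quantification). Per the authors' notes deposited with the tables, the build is mm10 and the annotation M21; the sources used here name neither aligner nor quantifier. Expected counts summed to 31838341 and 32931868.

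Members and gene lists were chosen with earlier results of these data known. Detection meant 1 TPM or more in both animals. Log2 ratios used expected counts scaled by TMM (factors 1.02 and 0.985), with a prior of 0.5 counts. Calls took 2-fold at a mean count of 100, which is a size threshold without a test. Intervals are 95% exact conditional binomial intervals for counting error; reads carry no molecular identifiers. All detected members are named, as are others with a mean count of 20 or more, leading transcripts of members at 5 TPM or more, the 2 highest genes of each list and detected genes starting within 5 kb of a detected member. Some genes and a sequence that this rule takes are not reported here. Further genes named were chosen after their values were seen. The lists cover targets of SOX10, SoxF, SOX9, SoxC, FOXO, FOXM1, FOXJ1, FOXF, FOXI1, FOXA, FOXP3 and FOXL2, and markers of adrenal cortex, chromaffin, Schwann and endothelial cells, capsule and fibroblasts, macrophages, kidney, pancreas, liver, skeletal muscle, adipose tissue and lymphocytes. Protein sequences were not used here; coding sequence was read from GENCODE M21 transcripts, from the longest coding transcript of each gene. Each alternative scaling, count filter, prior, TPM threshold and quantification is given at the end. Scripts were tested on simulated data. TMM came from edgeR 4.0.16 and the alternative size factors from DESeq2 1.42.0, both under R 4.3.3. Everything else ran in Python 3.11.15 with scipy 1.17.1 for the intervals, pandas 2.3.3 and numpy 2.4.6, and matplotlib 3.10.9 for the figures.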

Additional observations from a re-analysis of the deposited data

Results flagged for a closer look

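Genes listed at 0 in the gene tables had counts in the second quantification, which the report's comparisons do not use for them. Foxr1, the Fox gene with the poorest best match to the stretch shown for its family, had 19.1 estimated counts in replicate 1 and 12.1 in replicate 2, all on the transcript Foxr1-201. Foxb1, a factor of the developing midbrain and hypothalamus, had 6.09 estimated counts in replicate 1, and 2.05 in replicate 2, the latter under the floor of 3 counts. No other group comparison was possible, and no group had the 4 samples that a search for a sample far from the rest needs.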

How the results depend on the processing

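The 31 detected members became 32 at 0.5 TPM, 25 at 2 TPM, 31 with posterior mean TPM and 32 in the second quantification; with each animal alone the count was 32 and 32. None was called 2-fold with DESeq2 or spike-in scaling, deposited TPM, a prior of 2 counts or the second quantification, but 3 were at a mean count of at least 20 (Foxi1, Foxa3 and Foxq1) and 10 with no filter on low counts. The second quantification moved the summed TPM to 178.5 for Sox and 379.5 for Fox; without 1 animal the sums ranged from 100.6 to 106.7 for Sox and from 205.9 to 219.5 for Fox. Of 266 log2 ratios of named members under these settings, 256 stayed within the 95% counting interval of the ratio as reported. Settings that only changed the count filter left each ratio as it was, so their share of the 266 could not leave the interval. Of 38 TPM values, 37 were higher in the second quantification by more than the spread between the animals, by a median of 1.73 times in detected members; the cause was not tested. Of 15 leading transcript shares, 5 moved by less than that spread. DESeq2 size factors used genes averaging 100 counts or more, a choice made after seeing the data. No paired analysis was possible because there is only 1 group. The second quantification put Foxp1 (49.95 TPM) above Foxn3 (48.61 TPM), and the noncoding shares it gave were compared after seeing the data. Depth limits the members with a mean count under 100, whose intervals, except that of Sox8, were wider than 2-fold from end to end.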
